A study of Homo sapiens with 24 samples.

Results

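The 8 arrays described here held RNA of serum-starved A2780 cells, a human ovarian carcinoma line, from an experiment 1 and an experiment 2 of one study of 24 arrays. They were chosen by their titles: 4 were the controls of experiment 2 and 4 the controls of experiment 1. Each set of 4 held 2 arrays of the line that carries pcDNA, an empty vector, and 2 arrays of the line made with Rab25, a small GTPase of vesicle recycling. All 8 received 8 h of starvation and no agent, so within a line the experiment was the only labelled difference between them. The other 16 arrays came from the same starved lines after exposure to 10 ng/ml of EGF, to IGF at the same dose, to 5 ng/ml of TGF beta or to 5% FBS (fetal bovine serum), with 1 array for each line, agent and experiment. For the exposure to an agent the labels disagree: the protocol states 8 h for experiment 1 and 24 h for experiment 2, and the source names state 24 h throughout. They give no such time for the starved controls. Each line stands for 1 transfected line. The labels do not say which arrays came from separate cultures, so p-values measure the spread between these arrays, which may be technical. Everything that differed between the 2 experiments, time in culture included, cannot be told apart from the experiment itself.

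RNA was measured on 1-colour Affymetrix arrays, and all values are log2 signals, on which a difference of 1 is a 2-fold change. Of several probe sets of a gene, the one with the highest mean of the 24 arrays was used, which gave 11940 genes. Array medians of the 8 starved arrays ran from 8.08 to 8.24. RAB25 read 8.21 to 9.08 in the 4 Rab25 arrays and 4.90 to 5.32 in the 4 pcDNA arrays, as labelled. Of 14 genes fixed as ovarian carcinoma markers, KRT18 (13.99), KRT7 (12.75), KRT8 (12.75), PAX8 (11.86) and FOLR1 (10.88) had high mean signals over the 24 arrays, while those of MUC16 (4.94), EMX2 (4.96) and EPCAM (5.25) lay near the bottom of the scale. Between the experiments 3 of the ovarian carcinoma markers were higher and 2 lower in starved cells, beside 15.0% and 17.4% of all genes. Of markers of other cell types, 1 of 10 endothelial and 1 of 7 liver genes were higher, 1 of 10 fibroblast genes was higher and 1 lower, and none of 13 blood cell, 9 macrophage or 11 breast epithelium genes was called. Centring called 2 breast markers, and some single left-out arrays 1 macrophage or 1 breast marker. Their summed log2 signal in starved arrays was 9.003 to 9.183 in experiment 1 and 8.98 to 9.16 in experiment 2 for macrophage genes. In that order it was 9.39 to 9.76 and 9.51 to 9.75 for breast epithelium, and 12.31 to 12.67 and 12.12 to 12.24 for fibroblast genes. It was 12.47 to 13.10 and 12.72 to 13.03 for endothelial, and 9.14 to 9.32 and 9.18 to 9.36 for blood cell genes. Liver genes gave 8.87 to 9.02 and 9.10 to 9.31, and ovarian carcinoma genes 15.02 to 15.234 and 15.24 to 15.34. The fibroblast sum was lower in experiment 2 without overlap, and the liver and ovarian carcinoma sums higher. Genes high in all arrays, such as DCN, TIE1 and CDH5, weigh most in the fibroblast and endothelial sums. The 3′ minus 5′ difference of the actin control probe sets, a sign of RNA integrity, was lower by 0.144 in experiment 2 (exact permutation within lines, 2-sided p = 0.278), that of GAPDH by 0.005 (exact p = 0.944). With 36 arrangements that exact permutation test cannot give less than p = 0.0556. Whether RNA integrity or other cells had a part in the results was not tested.

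The 2 Rab25 arrays given FBS, which are not starved arrays but are set beside them further on, stood apart from the other 22. Markers were counted that read more than 1 above the highest of those 22 arrays. In the array of experiment 1 these were 6 of 11 breast epithelium, 5 of 10 fibroblast and 3 of 9 macrophage markers. In that of experiment 2 they were 1, 5 and 1. Of the endothelial, blood cell and liver markers 0 did so in either array. Of 14 ovarian carcinoma markers 1 did in experiment 1, EPCAM (8.49), and 0 in experiment 2. The share of all genes that did so was not computed. COL3A1, a fibrillar collagen of fibroblasts, read 12.761 and 11.003 in these arrays and 5.043 to 6.597 in the others, KRT19, an epithelial keratin, 9.95 and 5.54 against 4.90 to 5.41, and C1QA, a complement subunit of macrophages, 7.14 and 5.62 against 4.94 to 5.33. The summed fibroblast signal was 14.45 and 13.13 against 12.09 to 12.78, that of breast epithelium 12.17 and 10.16 against 9.34 to 9.81, and that of macrophages 9.85 and 9.56 against 8.97 to 9.18. RAB25 itself read 8.66 and 8.18 there. These 2 arrays enter only the comparisons with treated and with FBS arrays, which are given with and without them or the FBS arrays. With 1 line's FBS arrays left, the starved minus FBS fit matches those arrays exactly. Its SEs, adjusted p-values and counts then hold only the spread of starved arrays.

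Cells deprived of serum lose growth factor signals and usually leave the cell cycle before DNA replication begins. The E2F transcription factors, held in check by the retinoblastoma protein until cyclins E and D act, switch on the genes for licensing and copying DNA. The unfolded protein response is the programme by which misfolded proteins in the endoplasmic reticulum (ER) raise the ER's chaperones through the sensors ATF6, IRE1 and PERK. PERK and other kinases of the integrated stress response also raise the translation of ATF4, which induces genes of amino acid uptake and synthesis.

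Starved cells of the 2 experiments differed widely. In experiment 2 the genes of DNA replication and mitosis and the zinc exporter SLC30A1 were higher, and the chaperones of the ER, the stress factor DDIT3, inflammatory cytokines, MMP1 and LAMP3 were lower. In a limma fit of the 8 arrays with the line as a block, 1794 genes were higher in experiment 2 (15.0% of genes tested) and 2079 were lower (17.4%) at an adjusted p under 0.05. Of these 3873 genes 154 changed at least 2-fold, 59 up and 95 down. Counts of list members below stand beside these shares of 15.0% and 17.4%. In 18.4% of all genes both arrays of experiment 2 lay above both of experiment 1 in each line, and in 19.4% below. This held for 3677 of the called genes, a description and no test, since the fit over both lines calls such genes. Arrays of one line and experiment differed from each other with a standard deviation over genes of 0.144 to 0.173, and arrays of one line from different experiments with 0.308 to 0.383. The median gene shifted by 0.0066. Centring each array on its median left 4044 calls but turned the split to 2393 higher and 1651 lower.

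Within the lines, 3300 genes differed between the experiments in pcDNA cells (27.6%) and 2390 in Rab25 cells (20.0%). In pcDNA cells 1426 were higher and 1874 lower, and 2036 and 1357 after centring. Of the 1852 genes called in both, 1847 had the same sign and 5 had opposite signs. Across the 11940 genes the difference in pcDNA cells correlated with that in Rab25 cells at r = 0.783, a value over genes, which are not independent replicates.

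**Figure D1:**
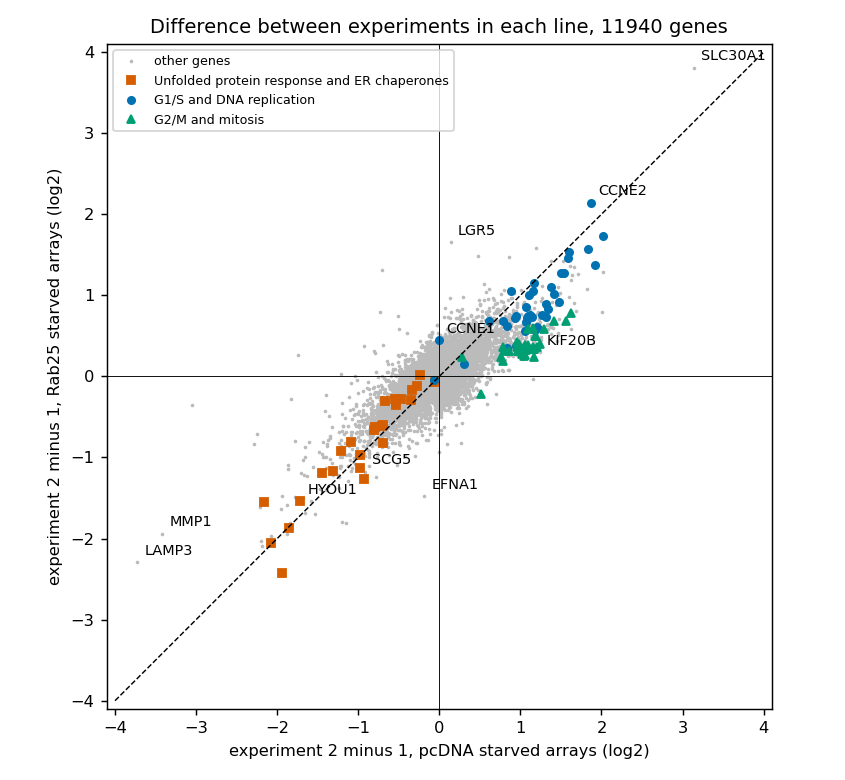
Difference between experiment 2 and experiment 1 in starved pcDNA cells (horizontal, log2) and in starved Rab25 cells (vertical, log2), each from 2 arrays against 2, for 11940 genes; coloured symbols are 3 gene lists and the dashed line marks equality. Genes of the unfolded protein response lie at the lower left and genes of G1/S and DNA replication at the upper right, while genes of G2/M and mitosis lie below the line, with a median of 1.07 in pcDNA and 0.35 in Rab25 cells.

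HYOU1, a chaperone of the ER lumen, read 13.40 and 13.55 in pcDNA cells of experiment 1 and 13.45 and 13.38 in Rab25 cells of experiment 1. In experiment 2 it read 11.79 and 11.73 in pcDNA and 11.87 and 11.88 in Rab25 cells. All 4 arrays of experiment 2 thus lay below all 4 of experiment 1, while within an experiment the lines lay close together. The fall was 1.63 ± 0.06 (log2, SE), or 3.09-fold (limma, adjusted p = 7.15e-07). SCG5, the 7B2 chaperone of the prohormone convertase PC2 in secretory granules, read 12.88 and 12.76 in pcDNA cells and 11.37 and 11.44 in Rab25 cells of experiment 1. In experiment 2 it read 12.00 and 11.81 in pcDNA and 10.20 and 10.26 in Rab25 cells. It was lower in experiment 2 in each line, and lower in Rab25 than in pcDNA cells within each experiment. The difference between the experiments was −1.05 ± 0.07 (adjusted p = 1.5e-05), and with no term for the line its adjusted p was 0.216. CCNE1, cyclin E1, which drives entry into S phase with CDK2, read 7.92 and 7.91 in pcDNA cells of experiment 1 and 7.96 and 7.87 in those of experiment 2, arrays that overlapped. In Rab25 cells it read 7.56 and 7.86 in experiment 1 and 8.10 and 8.21 in experiment 2. The mean difference of 0.22 ± 0.10 did not pass the test (adjusted p = 0.14), nor did the difference between the lines, 0.45 ± 0.15 (adjusted p = 0.247). The call of CCNE1 depends on the setting: it passed after quantile normalization (0.29, limma adjusted p = 0.0432), after median centring (0.28, adjusted p = 0.0493) and in the fit with 4 means of line by experiment (0.22, adjusted p = 0.0471).

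**Figure D2:**
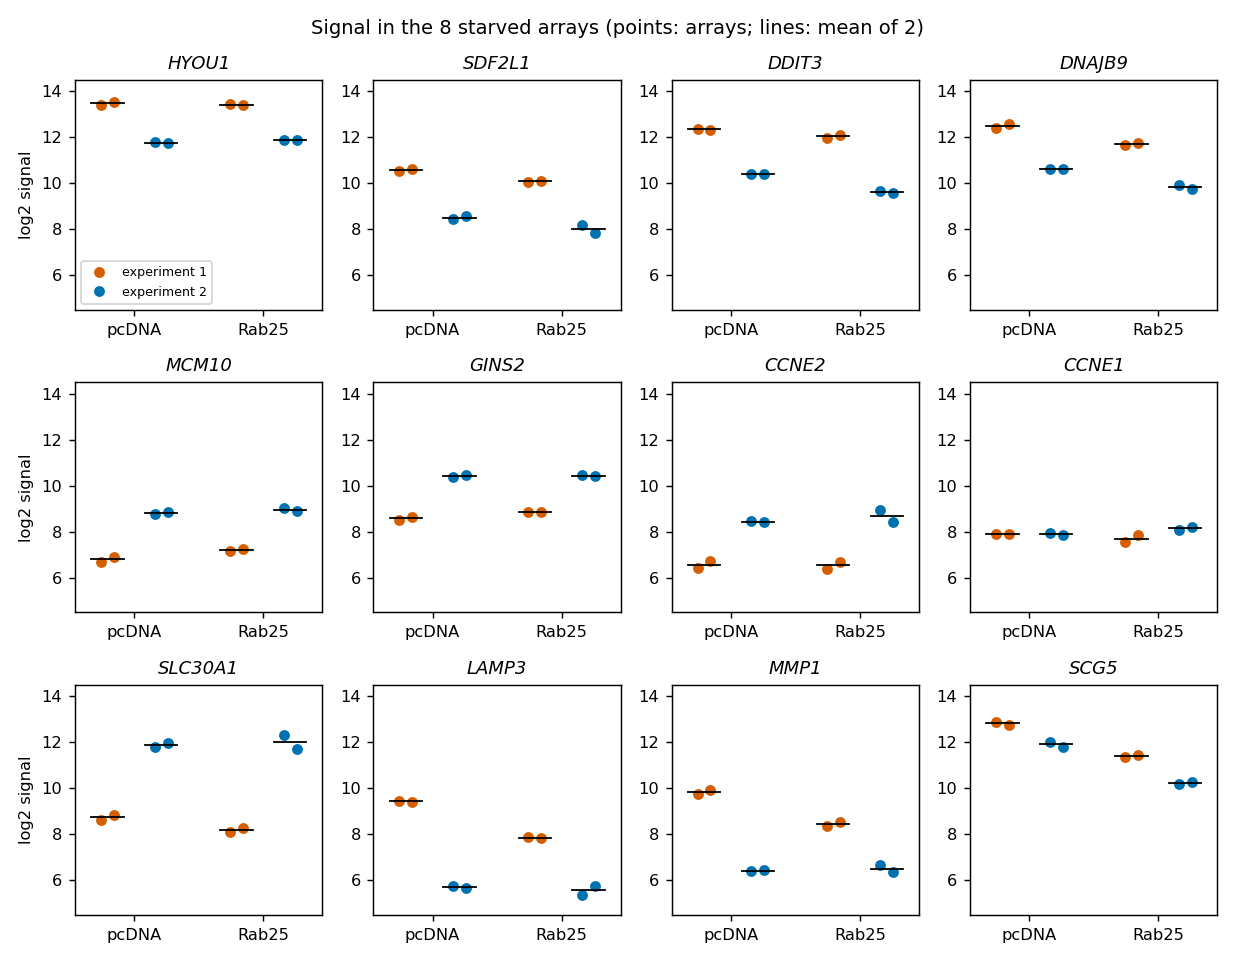
Log2 signal (vertical) of 12 genes in the 8 starved arrays, by line (horizontal) and experiment (colour); points are single arrays and black lines the mean of 2. HYOU1, SDF2L1, DDIT3 and DNAJB9 were lower in experiment 2 in both lines, MCM10, GINS2 and CCNE2 were higher, and CCNE1 overlapped in pcDNA cells.

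Genes of the unfolded protein response fell in experiment 2 almost without exception. Of 30 listed genes 27 were measured, 25 were lower (17.4% of all genes were) and none was higher, with a median difference of −0.73 against 0.0066 over all genes. DDIT3, the transcription factor CHOP that PERK signalling induces, read 12.36, 12.34, 11.99 and 12.09 in experiment 1 and 10.39, 10.42, 9.66 and 9.56 in experiment 2, in the order of 2 pcDNA and 2 Rab25 arrays. Its groups did not overlap, and it was 4.55-fold lower (−2.19 ± 0.10, adjusted p = 1.63e-06). SDF2L1, which works with the DnaJ chaperones of the ER, went from 10.55, 10.64, 10.05 and 10.12 to 8.44, 8.59, 8.21 and 7.86 (−2.06 ± 0.08, adjusted p = 8.35e-07). DNAJB9, a DnaJ co-chaperone of BiP, went from 12.41, 12.57, 11.67 and 11.75 to 10.62, 10.64, 9.95 and 9.73 (−1.87 ± 0.06, adjusted p = 5.42e-07), and its other probe set gave −2.53. ERO1B, an oxidase that makes disulfide bonds in the ER, fell by 1.86 ± 0.12. HSPA5, the master chaperone BiP, fell by 0.76 and HSP90B1, GRP94, by 0.65. The 2 members not called were XBP1 (−0.06, adjusted p = 0.41), the target of IRE1 splicing, and CALR (−0.11, adjusted p = 0.365), calreticulin, a lectin chaperone.

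The ER stress response element, the site where ATF6 with NF-Y binds the promoters of ER chaperones, is shown here because it was shared by listed genes that fell. RefSeq promoters of GRCh38.p14, 250 bases before and 50 after the start of a transcript, were found for 9593 of the 11940 genes and searched on both strands for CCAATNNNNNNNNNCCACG. The letters occurred in 14 genes, or 0.146%, and in 9 of the 25 unfolded protein response genes with a promoter. Capitals mark the match, read along the gene, and a match on the other strand appears as its reverse complement.
HSPA5, −81 to −33, chr9:125241376-125241424, minus strand: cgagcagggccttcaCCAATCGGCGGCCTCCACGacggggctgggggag
CRELD2, −95 to −47, chr22:49918539-49918587, plus strand: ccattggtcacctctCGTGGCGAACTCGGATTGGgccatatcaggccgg
PDIA6, −101 to −53, chr2:10812838-10812886, minus strand: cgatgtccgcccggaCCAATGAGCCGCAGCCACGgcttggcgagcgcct
SERP1, −247 to −199, chr3:150546695-150546743, minus strand: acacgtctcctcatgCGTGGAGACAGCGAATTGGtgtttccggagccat
ERO1B, −250 to −210, chr1:236282168-236282208, minus strand: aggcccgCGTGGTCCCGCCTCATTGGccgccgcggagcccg
XBP1, −67 to −19, chr22:28800588-28800636, minus strand: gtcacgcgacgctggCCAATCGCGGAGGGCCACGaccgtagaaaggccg
The 14 genes with this element were taken by sequence alone from the 9593 with a promoter, of which 1737 were lower and 1509 higher. Of the 14 genes 10 were lower and 1 higher in experiment 2, beside 17.4% and 15.0% of all genes. Since 9 of the 14 are on the unfolded protein response list, this is largely the same result; of the other 5, 3 were lower and 1 higher. HSPA5, CRELD2 (−1.07), PDIA6 (−0.32), SERP1 (−0.73), ERO1B, HSP90B1 and CANX (−0.42) of the list fell. FICD (−1.73 ± 0.10), the enzyme that modifies BiP with AMP, TRIM5 (−0.79) and ALG12 (−0.42), a mannosyltransferase of the ER, fell and were not on the list. SYNPO was higher (0.30), and XBP1, CALR and GLRA2 (0.19, adjusted p = 0.166) were not called. HYOU1, SDF2L1 and DNAJB9 fell as well without these letters in their window.

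Genes of the ATF4 and amino acid response, of which 32 of 36 were measured, fell less. In experiment 2 22 were lower (17.4% of all genes were), and the median was −0.39. The 1 that was higher (15.0% of all genes were) was SLC7A5, a subunit of the large amino acid transporter (0.49). SLC3A2, the heavy chain it pairs with, fell by 1.04 ± 0.08 from 11.37, 11.59, 11.09 and 11.19 to 10.50, 10.26, 10.23 and 10.10, with no overlap in either line. TRIB3, a pseudokinase induced by ATF4 and CHOP, fell by 1.10 ± 0.08, CEBPB, a partner of ATF4, by 0.68 ± 0.05, and SLC7A11, the cystine transporter, by 1.21 ± 0.10. The level of ATF4 mRNA itself differed by −0.09 (adjusted p = 0.257). Of 18 cytosolic aminoacyl-tRNA synthetases, which load amino acids onto tRNAs, 9 were lower and 2 higher, and without any of 7 of the 8 arrays 1 was higher. The ATF4 list and the unfolded protein response list share DDIT3 and TRIB3.

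Genes of G1/S and DNA replication rose in experiment 2. Of 38 measured members 35 were higher (15.0% of all genes were) and none was lower, with a median of 0.97. MCM10, which helps load the replicative helicase's activators, read 6.69, 6.92, 7.19 and 7.25 in experiment 1 and 8.77, 8.88, 9.02 and 8.89 in experiment 2, and rose 3.68-fold (1.88 ± 0.08, adjusted p = 1.48e-06). GINS2, a subunit of the helicase's GINS complex, went from 8.52, 8.65, 8.88 and 8.86 to 10.36, 10.48, 10.46 and 10.42, with no overlap (1.70 ± 0.07, adjusted p = 1.06e-06). The MCM helicase subunits MCM6 (1.65 ± 0.11), MCM4 (1.57 ± 0.09) and MCM3 (1.38 ± 0.07) rose with them. UNG, which removes uracil from DNA, rose by 1.53 ± 0.07. CCNE2, cyclin E2, read 6.43, 6.71, 6.40 and 6.69 in experiment 1 and 8.46, 8.42, 8.93 and 8.45 in experiment 2, a 4.02-fold rise with no overlap in either line (2.01 ± 0.12, adjusted p = 7.11e-06), beside the 0.22 of CCNE1. CDC6 (0.23, adjusted p = 0.067) and E2F2 (−0.05, adjusted p = 0.563) were the other members that were not called. CDC7, the kinase that fires replication origins (1.49 ± 0.08), HELLS, a chromatin remodeller (1.49 ± 0.12), and DSCC1, a subunit of a clamp loader (1.48 ± 0.10), were among the 12 largest rises. The second probe set of DSCC1 gave 0.04.

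E2F sites are shown because genes of this list shared them. The promoters were searched on both strands for TTTGGCGC, TTTCCCGC and TTTCGCGC, spellings that can overlap one another. They occurred in 487 genes (5.08% of the 9593), in 18 of the 35 G1/S and DNA replication genes with a promoter (51.4%) and in 3 of 30 genes of G2/M and mitosis (10.0%). Capitals mark the matches as above.
MCM6, −167 to −64, chr2:135876507-135876610, minus strand: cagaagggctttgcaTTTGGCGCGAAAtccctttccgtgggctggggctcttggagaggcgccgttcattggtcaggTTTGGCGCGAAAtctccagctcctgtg
GINS2, −46 to −9, chr16:85688963-85689000, minus strand: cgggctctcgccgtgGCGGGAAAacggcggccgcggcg
CDC7, −83 to −12, chr1:91501029-91501100, plus strand: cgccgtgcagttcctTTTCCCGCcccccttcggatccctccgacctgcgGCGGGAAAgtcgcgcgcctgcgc
MCM3, −189 to −152, chr6:52284894-52284931, minus strand: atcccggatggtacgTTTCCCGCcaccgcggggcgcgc
PCNA, −74 to −37, chr20:5126659-5126696, minus strand: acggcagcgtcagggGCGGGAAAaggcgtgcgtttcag
E2F2, −57 to −20, chr1:23531253-23531290, minus strand: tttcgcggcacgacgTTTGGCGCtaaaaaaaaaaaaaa
Of the 487 genes that hold such letters, 144 were higher (29.6%, against 15.0% of all genes) and 77 lower (15.8%, against 17.4%). Among the 9593 genes with a promoter, from which the 487 come, 1509 were higher and 1737 lower. Without the listed G1/S genes 128 of 469 were higher (27.3%) and 77 lower (16.4%), and the median difference was 0.02. The promoter of MCM6 holds 4 overlapping matches in 2 clusters; those of GINS2 and MCM3, which rose, and of E2F2, which was not called, hold 1 each.

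Genes of G2/M and mitosis rose as broadly in the fit over both lines. Within the lines, 35 of 36 were higher in pcDNA and 24 in Rab25 cells, beside 1426 and 1187 of all 11940 genes. In the test between the lines 3 had a smaller difference in Rab25 cells. Of all 11940 genes 6 had the lower value in Rab25 cells in that test. All 36 were measured. Over both lines 35 were higher (15.0% of all genes were), and the exception was the phosphatase CDC25B (0.15, limma adjusted p = 0.457). MKI67, the proliferation antigen Ki-67, read 10.15, 10.27, 10.82 and 10.90 in experiment 1 and 11.54, 11.70, 11.63 and 11.45 in experiment 2. The arrays of the lines differed in experiment 1, with Rab25 cells higher, and overlapped in experiment 2. Its rise was 1.04 ± 0.14 over both lines (adjusted p = 4.18e-04), 1.41 in pcDNA and 0.68 in Rab25 cells. KIF11, a motor of the spindle, rose by 1.20 ± 0.16, BIRC5, survivin, by 0.87 ± 0.11, and MAD2L1, of the spindle checkpoint, by 0.84 ± 0.11. The list's median was 1.07 in pcDNA and 0.35 in Rab25 cells, and that of G1/S and DNA replication 1.15 and 0.76. In RNA of whole cultures, fewer cells in a phase of the cycle and less RNA per cell cannot be told apart. Of 46 replication-dependent histone genes, whose RNAs lack poly(A) tails, 9 were higher and 2 lower, beside 15.0% and 17.4% of all genes. Without 1 array 6 to 9 were higher and 1 to 3 lower, and after centring 12 and 0. H2BC21 (0.71 ± 0.14) and H2AC18 (0.57 ± 0.08) were among the 9, and probe sets of these near-identical copies cannot always be assigned to 1 gene.

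Genes of biosynthesis moved less, and of all genes 15.0% were higher and 17.4% lower. Of 31 measured genes of ribosome biogenesis and MYC targets 20 were higher and 1 lower (median 0.30), among them BOP1 (0.93 ± 0.05) of pre-rRNA processing, the box C/D protein NOP56 (0.78 ± 0.07) and DKC1, dyskerin (0.63 ± 0.06). None of 32 cytosolic ribosomal proteins was higher and 1 was lower. Of 46 respiratory chain subunits 27 were higher and none lower, by small amounts (median 0.16), with 19 to 22 higher without 1 array and 37 after centring. ATP5MC1, a ring subunit of ATP synthase, read 10.00, 10.21, 10.27 and 10.39 in experiment 1 and 10.72, 10.93, 11.14 and 11.09 in experiment 2 (0.75 ± 0.07, adjusted p = 7.5e-05). Of 26 genes of cholesterol and fatty acid synthesis 8 were higher and 1 lower (median 0.14). Within the lines 12 were higher in pcDNA (median 0.24) and 4 in Rab25 cells (median 0.05), beside 1426 and 1187 of all 11940 genes. Over both lines INSIG1, the sterol sensor that retains SCAP, rose by 0.52 ± 0.05. FASN, fatty acid synthase, rose by 0.46 ± 0.05 (0.10 in its other probe set), and HMGCS1, HMG-CoA synthase, by 0.48 ± 0.07. In Rab25 arrays alone HMGCS1 was not called (0.46, limma adjusted p = 0.0641).

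SLC30A1, which exports zinc from the cell and is a target of the zinc sensor MTF1, showed the largest rise of the called genes. It read 8.64, 8.84, 8.12 and 8.28 in experiment 1 and 11.81, 11.95, 12.30 and 11.72 in experiment 2. The groups stood far apart in both lines, and the rise was 11.1-fold (3.47 ± 0.16, adjusted p = 1.98e-06). Of the 10 measured genes of the metallothionein and metal response list, SLC30A1 among them, 5 were higher and none lower. MT1E, a zinc-binding metallothionein, read 12.46, 12.66, 12.93 and 12.97 in experiment 1 and 12.97, 13.09, 13.75 and 13.80 in experiment 2 (0.65 ± 0.08, adjusted p = 4.12e-04). MT1M rose by 0.27 ± 0.05 (1.04 in its other probe set) and MT1F by 0.32 ± 0.08. MT2A (0.03, adjusted p = 0.686) and MTF1 (−0.08, adjusted p = 0.598) were not called. Metallothionein genes are close copies, and their probe sets may read more than 1 of them.

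LAMP3 and MMP1 were lower in experiment 2, where their signals lay low on the scale. LAMP3, a lysosomal membrane protein induced by ER stress and hypoxia, read 9.45 and 9.42 in pcDNA and 7.90 and 7.82 in Rab25 cells of experiment 1, and 5.74, 5.67, 5.39 and 5.75 in experiment 2. The lines stood apart in experiment 1 and overlapped in experiment 2, near the bottom of the scale. The difference was −3.01 ± 0.25 (adjusted p = 3.42e-05). MMP1, interstitial collagenase, read 9.73 and 9.93 in pcDNA and 8.35 and 8.55 in Rab25 cells of experiment 1, and 6.40, 6.43, 6.65 and 6.38 in experiment 2 (−2.68 ± 0.26, adjusted p = 7.61e-05). The deposited values carry no detection call, so the sizes of these 2 falls are not exact. Both genes are among those whose difference differed between the lines, −3.73 in pcDNA and −2.29 in Rab25 cells for LAMP3 and −3.41 and −1.94 for MMP1. For both genes the lines stood apart in experiment 1 and lay together in experiment 2. Whether a lower limit of the signal had a part in that gap was not tested. LARP6, which binds collagen mRNAs, fell by 2.11 ± 0.06, and LRRC49 by 1.91 ± 0.11.

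Of 28 measured NF-kB target and cytokine genes 18 were lower (17.4% of all genes were), none was higher (15.0%) and 10 were not called (median −0.58). IL6, interleukin 6, read 11.55, 11.73, 10.51 and 10.51 in experiment 1 and 9.72, 9.41, 8.34 and 8.74 in experiment 2, with no overlap within a line (−2.02 ± 0.10, adjusted p = 3.41e-06). CXCL2, a chemokine that attracts neutrophils, read 13.00, 13.20, 12.22 and 12.38 in experiment 1 and 11.28, 11.15, 10.37 and 10.34 in experiment 2 (−1.91 ± 0.07, adjusted p = 5.42e-07). Both were lower in Rab25 than in pcDNA cells in each experiment. ICAM1, an adhesion molecule, fell by 1.19 ± 0.07 and BCL3, a nuclear IκB protein, by 1.06 ± 0.07, although the second probe set of BCL3 gave −0.11. Of 33 immediate-early and ERK target genes 17 were lower and 2 higher, with IER3 (−1.26 ± 0.07), JUNB (−0.65 ± 0.06) and the ERK feedback genes DUSP5 (−0.67 ± 0.06) and SPRY4 (−0.60 ± 0.06) lower. The second probe set of SPRY4 gave −0.03. Without the Rab25 starved experiment 1 array 1 that list had 16 lower and 4 higher.

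GDF15, a secreted stress factor, had the lowest p. It read 13.91, 13.96, 12.82 and 12.88 in experiment 1 and 11.75, 11.73, 10.78 and 10.75 in experiment 2, a 4.41-fold fall in which the pairs of one line and experiment lay close together (−2.14 ± 0.05, adjusted p = 8.72e-08). Its weaker probe set gave −0.08. It belongs to the 25 measured p53 targets, of which 11 were lower and none higher (median −0.20). CDKN1A, the CDK inhibitor p21, fell by 0.76 ± 0.09, GADD45A by 0.51 ± 0.07 and PHLDA3 by 0.54 ± 0.08. Of 31 genes of FOXO activity and growth factor withdrawal 15 were lower and 1 was higher, KLF6 (0.32). TXNIP, the thioredoxin inhibitor that rises with glucose, read 10.16, 10.32, 10.87 and 10.91 in experiment 1 and 8.35, 8.56, 9.33 and 9.47 in experiment 2 (−1.64 ± 0.08, adjusted p = 3.54e-06). CDKN1B, the CDK inhibitor p27 of resting cells, fell by 0.66 ± 0.07, BCL6 by 1.03 ± 0.06 and CCNG2 by 0.61 ± 0.06.

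Further stress and catabolic lists held more lower than higher genes, beside 17.4% and 15.0% of all genes. Of 31 lysosome and autophagy genes 18 were lower and 1 was higher (median −0.32), with WIPI1 (−1.17 ± 0.05), the autophagosome protein MAP1LC3B (−0.79 ± 0.06), the autophagy receptor SQSTM1 (−0.80 ± 0.06, other probe set −1.70) and the sialidase NEU1 (−0.72 ± 0.06) lower. Without any of 5 of the 8 arrays the 1 higher call was lost. Of 24 NRF2 and glutathione genes 16 were lower and 1 higher (median −0.32), GCLC of glutathione synthesis by 0.90 ± 0.11 and NQO1 by 0.39 ± 0.05. AKR1C1 fell by 0.70 ± 0.10, and its close copies in the AKR1C family may share its probes. Of 24 heat shock chaperones 11 were lower and 2 higher, among them the near-identical HSPA1A (−1.11 ± 0.06) and HSPA1B, DNAJB4 (−0.96 ± 0.08) and HSPB1 (−0.46 ± 0.05). Of 38 hypoxia and glycolysis genes 14 were lower and 2 higher, and the glucose transporter SLC2A3 (−1.68 ± 0.07), NDRG1 (−0.88 ± 0.06), the demethylase KDM3A (−0.82 ± 0.05) and VEGFA (−0.87 ± 0.07) fell, while the list's median was −0.05 and, after centring, 0.01. Of 17 circadian genes 8 were lower and none higher, with NFIL3 (−1.83 ± 0.07), BHLHE40 (−1.09 ± 0.07), BMAL1 (−0.70 ± 0.06) and BHLHE41 (−0.57 ± 0.08) among them. Without the pcDNA starved experiment 1 array 2 the circadian list had 7 lower and 1 higher.

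Secreted signals and matrix genes moved both ways. Of 44 genes of extracellular matrix and collagens 17 were higher and 7 lower, with the basement membrane collagens COL4A2 (0.73 ± 0.05) and COL4A1 (0.64 ± 0.06) and the crosslinking enzyme LOXL2 (0.54 ± 0.05, other probe sets −0.12 and 0.42) up and MMP1 down. Of 24 WNT pathway genes 7 were higher and 5 lower. DKK1, a secreted WNT antagonist, read 10.74, 10.74, 11.52 and 11.36 in experiment 1 and 12.47, 12.33, 12.78 and 12.79 in experiment 2 (1.50 ± 0.08, adjusted p = 3.54e-06). DKK2 (1.19 ± 0.09) and the receptor FZD1 (0.51 ± 0.06) rose and DKK3 (−0.42 ± 0.06, other probe sets −0.43 and −0.05) fell. FGF1, a fibroblast growth factor, rose by 1.66 ± 0.15 and its second probe set by 0.72. Of 19 secretory granule genes 3 were higher and 5 lower, with SYT1, a calcium sensor of vesicle release (−0.95 ± 0.11), and UCHL1 (−0.37 ± 0.05) down beside SCG5 and neuromedin U, NMU, up (0.89 ± 0.10). The TGF beta and SMAD targets had 12 higher and 9 lower of 36, and the actin, SRF and YAP targets 12 and 2 of 28. Some lists, that of secretory granule genes among them, lay near the shares of all genes, 15.0% higher and 17.4% lower. Nothing is read from the counts of those lists. The interferon response genes had 3 higher and 8 lower of 34 (6 and 6 after centring), and the mesenchymal genes 2 and 4 of 19 (3 and 3 after centring). Epithelial junction and keratin genes had 4 higher and 3 lower of 27, and 2 to 3 higher and 3 lower without 1 array. The 26 proteasome subunits are not among those lists, with 6 higher and none lower. Their count depended on the setting, with 4 higher after quantile normalization, 12 after centring and 3 to 6 without 1 array.

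The size of the difference between the experiments was tested between the lines. It differed for 13 genes (0.109% of those tested), 7 of which had the higher value in Rab25 and 6 in pcDNA cells, while 1535 genes had an unadjusted p under 0.05. LGR5, an R-spondin receptor, read 5.07 and 5.16 in experiment 1 and 5.31 and 5.20 in experiment 2 in pcDNA cells, and 5.79 and 5.86 against 7.36 and 7.59 in Rab25 cells. Rab25 minus pcDNA was 1.52 ± 0.13 (adjusted p = 0.0153). Its other probe set gave 0.23 over both lines. BAMBI, a decoy receptor of TGF beta signalling, read 7.70 and 7.72 against 5.64 and 6.12 in pcDNA cells, and 5.69 and 5.75 against 5.49 and 5.39 in Rab25 cells, where it was low throughout (1.54 ± 0.20, adjusted p = 0.0419). IGFBP1, which binds insulin-like growth factors, fell by 2.25 in pcDNA and by 0.71 in Rab25 cells (1.54 ± 0.18, adjusted p = 0.0303). EFNA1, an ephrin ligand, read 5.49, 5.79, 5.47 and 5.44 in pcDNA cells, without a step between the experiments, and went from 7.35 and 7.54 to 5.96 and 5.99 in Rab25 cells (−1.29 ± 0.15, adjusted p = 0.0303). NMNAT2, of NAD synthesis, rose by 1.63 in pcDNA and 0.58 in Rab25 cells (−1.04 ± 0.11), and the mitotic kinesin KIF20B by 1.24 and 0.30 (−0.94 ± 0.12). LAMP3 and MMP1, above, are also among the 13. The signals of LGR5 and EFNA1 in pcDNA cells and of BAMBI in Rab25 cells lay near the bottom of the scale. Differences there may be compressed, which was not tested. These calls were few and each array carried weight: leaving out any 1 array left 1 to 5 genes, and centring the arrays gave 91.

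The same difference was then measured in the 16 arrays that had received an agent, which share no array with the starved cells. By the protocol, but not the source names, their exposure was 8 h in experiment 1 and 24 h in experiment 2. If so, exposure time cannot be told apart from the experiment in these arrays. There 1514 genes were higher in experiment 2 (12.7%) and 1665 lower (13.9%), and 2107 and 1236 after centring. Of the 3873 genes called in starved cells 2286 were called in these arrays too, 59% of the starved and 71.9% of the treated calls, and 2280 of them had the same sign. Without the 4 FBS arrays 2364 were higher and 1977 lower, and 3088 were shared with the starved cells, 3081 with the same sign. The difference between the starved and the mean treated shift passed the test for 4 genes (0.0335%, with 852 at an unadjusted p under 0.05). PER2, a repressor of the circadian clock, read 8.64 and 8.60 in Rab25 and 8.61 and 8.82 in pcDNA starved cells of experiment 1 and 8.76 to 8.84 in those of experiment 2, while in treated cells it rose by 1.01, so the starved shift was smaller by 0.87 ± 0.09 (limma, adjusted p = 8.3e-04). The starved shift of PER2 itself, 0.13, was not called, but was after quantile normalization (0.18, adjusted p = 0.0276), after centring (0.19, adjusted p = 0.0274) and without pcDNA starved experiment 1 array 2 (0.18, adjusted p = 0.0345). PDGFA, a platelet-derived growth factor chain, fell by 0.55 in starved cells and differed by 0.10 in treated cells (−0.65 ± 0.10, adjusted p = 0.0268). SPHK1, sphingosine kinase 1, rose by 0.57 and 1.08 (−0.51 ± 0.08, adjusted p = 0.0447), and IL1RAPL1, a synaptic receptor protein, differed by 0.38 and −0.40 (0.78 ± 0.12, adjusted p = 0.0337). Leaving out any 1 starved array left 1 to 5 calls, and without the FBS arrays 20 genes were called, these 4 among them.

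The agents did not share this shift equally. Across the 11940 genes the shift in starved cells correlated with that after EGF at r = 0.87, after IGF at 0.816 and after TGF beta at 0.84, but after FBS at 0.21 (0.092 in pcDNA and 0.264 in Rab25 cells alone), each over genes and with separate arrays. For the 154 genes called and changed at least 2-fold in starved cells, the median ratio of an agent's shift to the starved shift was 0.909 for EGF, 1.01 for IGF, 0.948 for TGF beta and 0.157 for FBS (0.024 in pcDNA and 0.308 in Rab25 cells alone). In both lines 149 of the 154 kept their sign after EGF, IGF and TGF beta, and 75 after FBS. Taken singly, the lines kept it after FBS for 80 genes in pcDNA and 117 in Rab25 cells. The share of all genes that kept their sign was not computed. A comparison with EGF, IGF and TGF beta alone and one with FBS alone were chosen after the data had been seen. Against EGF, IGF and TGF beta together 20 genes differed in their shift from starved cells (0.168%). Against FBS the shift in starved cells was higher for 1470 genes (12.3%) and lower for 1081 (9.05%). With 1 FBS array per line and experiment, most residual degrees of freedom behind these calls came from the starved arrays. Centring the arrays turned the last split to 937 higher and 1636 lower. Without the Rab25 FBS arrays, dropped singly or together, it was 719 higher and 894 lower, and without a pcDNA FBS array 1604 and 621, so which side held more genes depends on scaling and line.

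**Figure D3:**
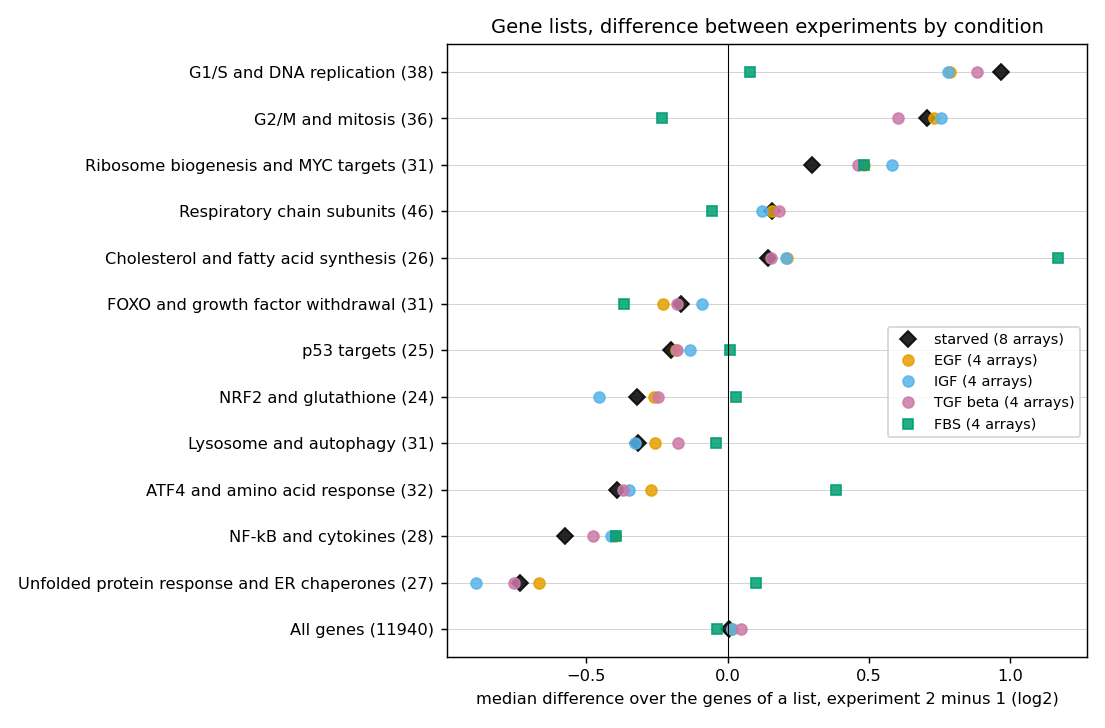
Median log2 difference between experiment 2 and experiment 1 (horizontal) over the genes of 12 lists and over all genes (vertical, number of genes in brackets), in starved cells and after each agent. The unfolded protein response median was −0.73 in starved cells, −0.67 after EGF, −0.89 after IGF, −0.76 after TGF beta and 0.10 after FBS.

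In the FBS arrays of both experiments HYOU1, LAMP3 and MCM10 lay near their levels in starved cells of experiment 2. HYOU1 read 11.78 and 12.12 in pcDNA and 11.85 and 12.04 in Rab25 cells given FBS in experiments 1 and 2, beside 11.73 to 11.88 in starved cells of experiment 2. EGF, IGF and TGF beta arrays read 13.43 to 13.64 in experiment 1 and 11.78 to 11.93 in experiment 2, apart from each other as the starved arrays were. The starved shift of HYOU1 was lower than the FBS shift by 1.89 ± 0.11 (limma, adjusted p = 2.1e-05). Against the pcDNA FBS arrays alone the difference for HYOU1 was −1.97, with no spread of FBS arrays to test it by. LAMP3 likewise read 5.55 to 5.92 in all 4 FBS arrays, near the bottom of the scale. MCM10 read 8.81 and 9.08 in pcDNA and 8.30 and 9.23 in Rab25 cells given FBS, beside 8.77 to 9.02 in starved cells of experiment 2. SLC30A1 did not follow this order, with 8.79 and 9.15 in pcDNA and 8.14 and 9.93 in Rab25 cells given FBS, far below the 11.72 to 12.30 of starved cells of experiment 2. The difference of its shift, starved minus FBS, was 2.399 with all FBS arrays (limma, adjusted p = 0.00211) and 3.12 with the pcDNA FBS arrays alone.

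**Figure D4:**
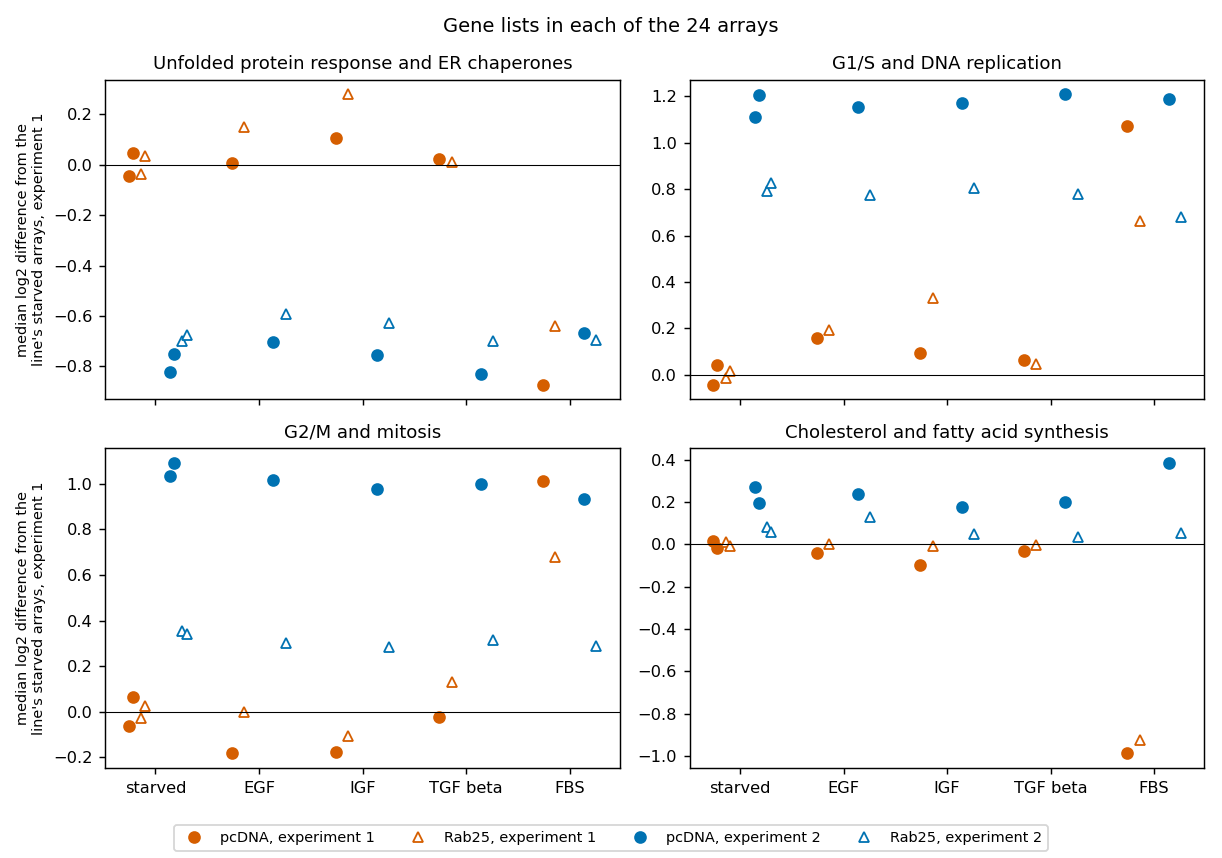
Median log2 difference of 4 gene lists from the same line's starved arrays of experiment 1 (vertical) in each of the 24 arrays, by condition (horizontal), line (symbol) and experiment (colour). For G1/S and DNA replication the pcDNA arrays with FBS lie at 1.07 and 1.19, beside 1.11 and 1.21 in starved cells of experiment 2, and cholesterol and fatty acid synthesis is low in FBS arrays of experiment 1, at −0.99 and −0.92.

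By list, the median of the unfolded protein response lay at −0.82 and −0.75 in pcDNA and −0.70 and −0.67 in Rab25 starved arrays of experiment 2, and at −0.87 and −0.67 (pcDNA) and −0.64 and −0.70 (Rab25) in FBS arrays of experiments 1 and 2, all against the line's starved arrays of experiment 1. The shift of 24 of the 27 genes was lower in starved cells than with FBS (9.05% of all genes) and none was higher. With the pcDNA FBS arrays alone the median difference of the shifts was −0.96. G1/S and DNA replication genes lay at 1.11 and 1.21 in pcDNA and 0.79 and 0.83 in Rab25 starved arrays of experiment 2. With FBS they lay at 1.07 and 1.19 (pcDNA) and 0.66 and 0.68 (Rab25). Of 38 genes 32 had a higher (12.3% of all genes) and 1 a lower shift in starved cells. The median difference of their shifts was 0.89 with the pcDNA FBS arrays alone. For G2/M and mitosis 31 of 36 had a higher shift in starved cells (12.3% of all genes). The median difference of their shifts was 0.90 without the Rab25 FBS arrays. The ATF4 list stood lower with FBS than in any starved array, at −1.37 and −0.97 in pcDNA and −1.02 and −0.98 in Rab25 cells, against −0.42 to −0.34 in starved cells of experiment 2.

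SCG5 moved in opposite directions with FBS and in starved cells, and sterol genes rose in both, by more with FBS. SCG5 read 10.39 in pcDNA and 8.60 in Rab25 cells given FBS in experiment 1, and 12.23 and 10.52 in experiment 2. It thus rose by 1.88 with FBS and fell by 1.05 in starved cells. The difference was −2.92 ± 0.13 (limma, adjusted p = 5.34e-06), and −2.88 with the pcDNA FBS arrays alone. HMGCS1 read 8.32 and 8.75 with FBS in experiment 1 and 12.03 and 11.52 in experiment 2, a shift of 3.24 against 0.48 in starved cells. The difference was −2.76 ± 0.22 (limma, adjusted p = 1.19e-04), and −3.23 with the pcDNA FBS arrays alone. Of the 26 cholesterol and fatty acid genes 19 had a lower shift in starved cells than with FBS (9.05% of all genes) and none a higher one. The median difference of their shifts was −1.28 with the pcDNA FBS arrays alone. TXNIP fell in both, by 1.64 in starved cells and by 2.64 with FBS (1.00 ± 0.14, limma adjusted p = 0.00114). With the pcDNA FBS arrays alone the difference was 0.94. For CCNE1 the shift was 0.22 in starved cells and 0.09 with FBS, and the difference did not pass the test (0.13 ± 0.17, limma adjusted p = 0.663). That difference was 0.20 with the pcDNA FBS arrays alone. Each FBS value rests on 1 array per line and experiment, and the FBS shift may hold a difference of exposure time as well as of experiment.

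**Figure D5:**
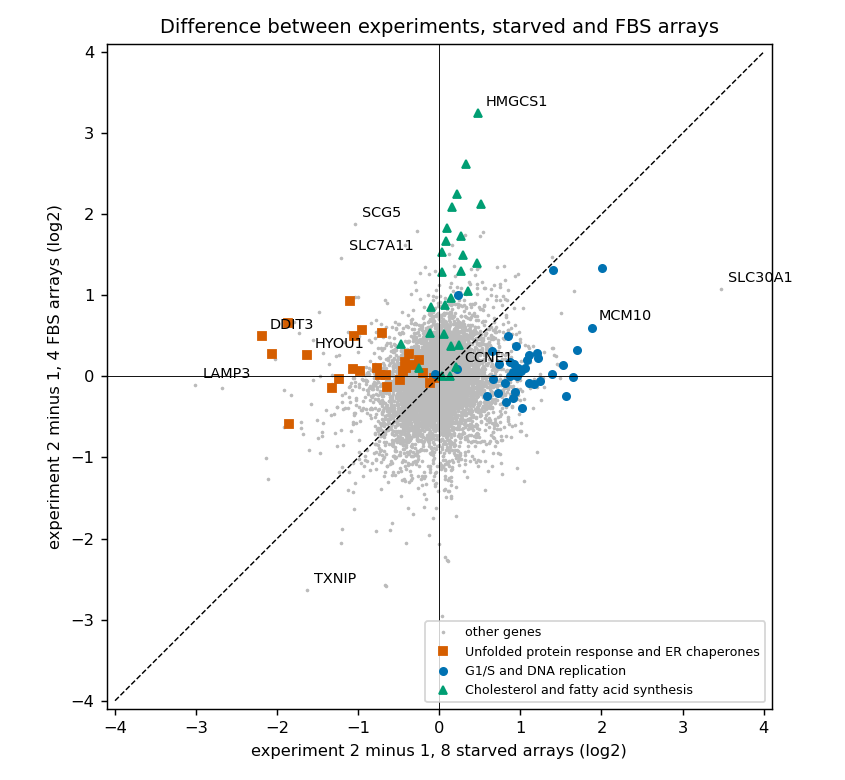
Difference between experiment 2 and experiment 1 in the 8 starved arrays (horizontal, log2) and in the 4 FBS arrays (vertical, log2) for 11940 genes, with 3 gene lists coloured and the dashed line marking equality. The 2 Rab25 FBS arrays, which stand apart in marker genes, are included. Unfolded protein response genes spread along the left of the horizontal axis (median 0.10 with FBS), while cholesterol and fatty acid genes rise along the vertical one (median 1.17 with FBS and 0.14 in starved cells).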

How the data were processed

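Biotin-labelled total RNA was hybridised to 24 high-throughput Affymetrix human expression arrays (Early Access version). The deposited log2 values of the authors' series table were used; the submitters' processing notes name MAS5 and RMA, and which step each did is not given in the sources used here. Of 22930 probe sets, 524 controls, 125 with several genes and 2866 with no gene in the platform annotation were left out of gene tests. limma 3.58.1 (R 4.3.3) fitted experiment 2 minus 1 in 8 starved arrays with line as a block (5 residual and 4.24 prior degrees of freedom), with Benjamini-Hochberg adjustment over 11940 genes and a threshold of 0.05. Differences between lines came from 4 means of line by experiment; shifts after agents came from 16, 24, 20 and 12 arrays. Scripts were tested on simulated data. No value filter was used. The number of arrays limits precision. Alternatives were other scalings, weights, probe set rules, filters, designs and leaving out each array.

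The members, the 36 gene lists and the tests were chosen with earlier results of these data known, so no list is independent evidence. Named genes were HYOU1, SCG5, CCNE1 and RAB25, the 12 largest rises and falls whose arrays did not overlap in either line, of each difference between shifts no more than 3 in each direction, and the up to 4 list members of lowest p; genes with an ER stress element were named by sequence, and members that were the exceptions of a list, and marker genes, were named after their values were seen. Replicate numbers were not taken to pair the arrays. Deviations of same-numbered arrays correlated between −0.264 and 0.196 over 6 pairs of groups, which cannot exclude a pairing.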

Additional observations from a re-analysis of the deposited data

Results flagged for a closer look

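Groups held 2 starved arrays or 1 treated array, so single arrays were not tested for standing apart from their group. The difference between the experiments itself differed between the lines for 13 genes. Rab25 minus pcDNA was 1.54 for BAMBI, 1.54 for IGFBP1, 1.52 for LGR5, −1.29 for EFNA1, −1.04 for NMNAT2 and −0.94 for KIF20B.

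The shift between the experiments differed between starved and treated arrays for 4 genes, by 0.78 for IL1RAPL1, −0.87 for PER2, −0.65 for PDGFA and −0.51 for SPHK1. It differed between starved and FBS arrays for 2551 genes, and for SCG5 by −2.92, or by −2.88 without the Rab25 FBS arrays. Chance alone gives some such differences at an adjusted p under 0.05.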

How the results depend on the processing

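The count of 3873 genes in starved cells stayed within 1.5 times under quantile normalization, median centring, array weights, a trended prior, the median of probe sets, the filter on low genes, the designs with 4 or more means and every left-out array (3227 to 3675). It was 2262 with no line term, 1657 with Rab25 arrays alone and 154 with a 2-fold minimum. With a replicate block it was 3663, and the block moved the count for the line difference to 3 and that for starved minus treated to 1. The line difference had 60 genes after quantile normalization, 91 after median centring, 27 with array weights, 126 without the lowest 40% of genes and 1 to 5 without 1 array. Starved minus treated had 7 after quantile normalization, 43 with array weights, 14 without the lowest 40%, 20 without FBS arrays and 1 to 5 without 1 starved array. Treated arrays gave 1193 calls in pcDNA and 915 in Rab25 alone. Starved minus FBS gave 1613 to 2402 without 1 array, the lowest without either or both Rab25 FBS arrays, an alternative added after the data had been seen; centring turned its split from 1470 higher and 1081 lower to 937 and 1636. In treated arrays centring gave 2107 higher and 1236 lower, in pcDNA cells 2036 and 1357. Of 103 named genes called in starved cells, 80 kept the call and sign in every alternative, and 101 in every one that left out 1 array; LGR5 and EFNA1 lost it without any 1 Rab25 array. Signs turned for CCNE1 in pcDNA arrays alone (−0.0034) and for RAB25 in pcDNA arrays alone (−0.13) and without Rab25 starved array 2 of experiment 1 (−0.0545) or experiment 2 (−0.0158), in a range up to 0.2416 without 1 array, none of them called. The cause was not tested. Signals near 5 on the log2 scale are the lowest of the arrays, and differences there may be compressed, which was not tested.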
